A study of Mus musculus with 6 samples.

Results

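Sulphated glycosaminoglycan synthesis was read from 42 named enzymes, transporters and sulphotransferases, chosen by gene symbol from the 24346 symbols of an RNA-seq table of mouse articular chondrocytes. All 42 symbols were in the table and none was absent. The chondrocytes were primary cells from cartilage of ICR mice at postnatal day 4. Articular chondrocytes build and keep up the cartilage of joints. The cells were stimulated with semaphorin 4D (Sema4D), a ligand of plexin-B receptors, in 3 libraries, and cultured without it in 3 control libraries. No genotype, dose or duration is given in the labels, and the origin of the replicates (cultures, animals or repeat preparations) is not given either. All p-values below therefore weigh differences against library-to-library spread that may be only technical.

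Sulphated glycosaminoglycans are long sugar chains, built in the Golgi on serines of proteoglycan core proteins. A short linker begins with xylose, after which either chondroitin or heparan chains are extended, and sulphotransferases then place sulphate at set positions of the sugars using the donor PAPS. In cartilage, chondroitin sulphate on aggrecan holds the fixed charge that draws in water, and human or mouse defects of sulphate uptake, PAPS synthesis or the first xylose cause skeletal dysplasia. The 42 genes are grouped here as 5 linker enzymes, 8 chondroitin chain enzymes, 6 heparan chain enzymes, 17 sulphotransferases and 6 genes of precursor supply.

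Expression was given as FPKM, in which fragment numbers are corrected for transcript length and library depth, which allows levels to be set beside each other between genes. Fold changes below are differences of log2(FPKM + 1), Sema4D minus control, from limma fitted on the 11603 genes averaging 1 FPKM or more. A gene was called at a Benjamini-Hochberg adjusted p under 0.05 over all of them. The steps of low FPKM values put depth at about 1.34e+07 to 1.75e+07 fragments per library, so 3 fragments on a transcript of 1 kilobase would be worth 0.171 to 0.224 FPKM. FPKM columns summed to 518901 to 527492 in the Sema4D libraries and 492708 to 494123 in the control libraries. Of 12 chondrocyte markers 10 were in the table under the names searched, all 10 were lower with Sema4D, and their summed level was 11678 to 12644 FPKM in the Sema4D and 14519 to 15688 FPKM in the control libraries. The 8 fibroblast and synovial markers summed to 7723 to 8072 FPKM with Sema4D and 8379 to 8978 FPKM in control, with 1 of 7 tested higher (Pdgfra) and 4 lower. Those of macrophages and osteoclasts summed to 91.3 to 95.8 FPKM with Sema4D and 80.9 to 89.0 FPKM in control, mostly Ctsk, with 1 of 5 tested higher and 2 lower. Tyrobp, 1 of the 2 lower, averaged 0.636 FPKM with Sema4D and 1.68 FPKM in control. It reached a mean of 1 FPKM only through its control libraries. Beside these marker counts, 24.5% of all tested genes were called higher and 22.2% lower. Osteoblast, muscle, endothelial and blood markers each summed, list by list, to at most 6.58 FPKM in any library, and Hbb-bs, S100a9 and Elane were listed at 0 throughout.

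The 42 genes moved in both directions with Sema4D. Of 37 that passed the filter on low values, 12 rose, against 24.5% of all tested genes called higher, and 14 fell, against 22.2% of all tested genes called lower. Together they were 70.3% of the tested members, beside 46.7% of all tested genes called in either direction. Their median log2 fold change was -0.03, beside 0.01 over all tested genes. The 5 under the filter were the sulphotransferase genes Chst13, Ndst3, Hs3st1, Hs3st3a1 and Hs3st3b1. Each of the 26 called members had Sema4D and control libraries that did not overlap: 12 were higher in every Sema4D library, where 29.6% of all tested genes were, and 14 were lower in every one, where 27.0% were (56.6% in either direction). Past the threshold and beyond 1.5-fold on the log2(FPKM + 1) scale were 2 rises, Chst15 and Dsel (5.41% of tested members, against 6.66% of all tested genes), and 3 falls, Slc26a2, Chsy3 and Papss2 (8.11%, against 3.71%). Chst15 passed the filter only through its Sema4D libraries. With every column scaled to a common sum, 9 members rose and 17 fell, and over all genes 2005 rose and 3802 fell.

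**Figure D1:**
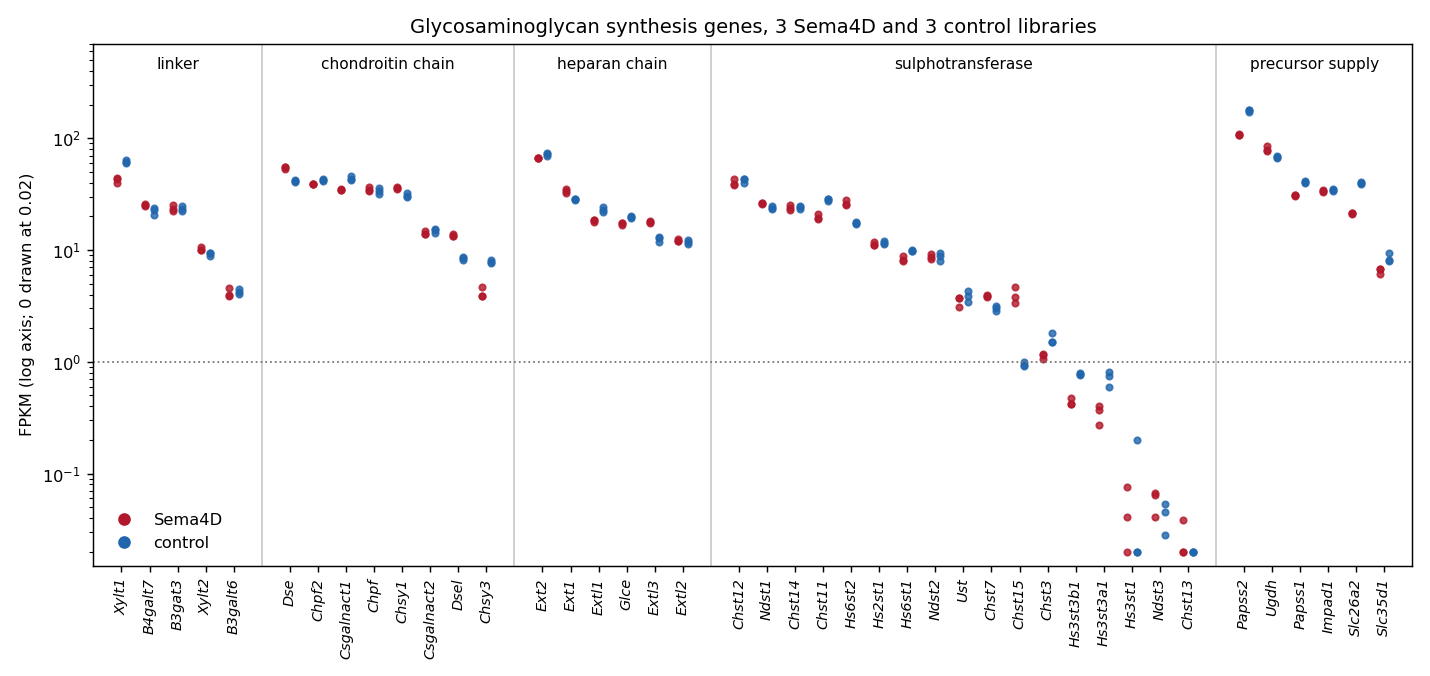
FPKM of the 42 genes by role, on a log axis, with 1 point per library (red, 3 Sema4D libraries, left; blue, 3 control libraries, right; values of 0 drawn at 0.02; dotted line, 1 FPKM). Papss2 stood highest in every library, and Hs3st1, Ndst3 and Chst13 lay near or at 0.

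Most called changes in precursor supply were falls. Of its 6 genes 4 fell (Slc26a2, Papss2, Papss1 and Slc35d1), 1 rose (Ugdh) and Impad1 did not pass the threshold, with a median log2 fold change of -0.37. The falls were 66.7% and the rise 16.7% of the 6, beside 22.2% and 24.5% of all tested genes. In bulk RNA, fewer cells of a type and less RNA per cell cannot be told apart, and the chondrocyte markers fell in the same libraries; their part in these falls and in those given further on was not tested. Slc26a2 encodes the plasma membrane sulphate transporter whose loss causes diastrophic dysplasia in humans. It had 21.2, 21.7 and 21.5 FPKM in the Sema4D libraries, against 39.3, 40.7 and 39.5 FPKM in the control libraries. Every Sema4D library was thus well below every control library, and the mean fell by 46.1% (log2 fold change -0.86, SE 0.032, limma adjusted p = 1.57e-07).

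Papss1 and Papss2 are the 2 PAPS synthases, which turn sulphate into the donor used by all the sulphotransferases, and Papss2 is the form whose mutation gives the short-limbed brachymorphic mouse. Papss2 (chr19:32595790-32667187, plus strand, GRCm38) had 108, 107 and 109.9 FPKM in the Sema4D libraries, against 179.9, 173 and 179 FPKM in the control libraries. It was the most abundant of the 42 genes in all 6 libraries and made up 11.2% ± 0.160 of their summed FPKM with Sema4D and 16.7% ± 0.377 in control (SD, n = 3 each). Its log2 fold change was -0.71 (SE 0.027, limma adjusted p = 2.07e-07). Papss1 (chr3:131564768-131643671, plus strand) also fell, with 31.0, 30.2 and 31.3 FPKM in the Sema4D libraries and 39.6, 40.9 and 41.9 FPKM in the control libraries (-0.39, limma adjusted p = 2.78e-05). Both synthases thus had lower values in all Sema4D libraries, and together they summed to 139 ± 2.18 FPKM with Sema4D and 218 ± 3.36 FPKM in control (SD, n = 3 each).

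The promoters of both synthases are shown because the pair fell together. The windows run 5′ to 3′ over 250 bases before and 50 after the start site, from RefSeq on GRCm38.p6 (Papss2 chr19:32595465-32595764, plus strand; Papss1 chr3:131564518-131564817, plus strand). Capitals mark matches, on either strand, to any of 6 searched motifs: GGANNTTCC (the inner part of an NF-kappaB site), AACAATG and ACAAAG (SOX), ACGTG (hypoxia element), TGANTCA (AP-1) and GGGCGG (SP).
Papss2: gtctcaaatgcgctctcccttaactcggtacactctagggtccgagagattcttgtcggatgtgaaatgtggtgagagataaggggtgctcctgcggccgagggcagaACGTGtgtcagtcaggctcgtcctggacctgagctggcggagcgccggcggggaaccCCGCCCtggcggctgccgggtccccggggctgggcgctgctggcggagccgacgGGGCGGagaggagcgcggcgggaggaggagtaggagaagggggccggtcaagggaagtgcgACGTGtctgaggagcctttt
Papss1: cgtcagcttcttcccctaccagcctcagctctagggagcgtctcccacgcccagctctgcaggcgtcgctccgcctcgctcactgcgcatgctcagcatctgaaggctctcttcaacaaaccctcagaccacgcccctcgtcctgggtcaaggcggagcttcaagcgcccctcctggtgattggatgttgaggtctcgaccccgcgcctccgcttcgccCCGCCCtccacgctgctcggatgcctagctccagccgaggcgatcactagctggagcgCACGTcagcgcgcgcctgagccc
The capitals in both windows are ACGTG and GGGCGG or their reverse complements. ACGTG occurred in 10 of the 34 members with a window and in 26.5% of the first windows of all tested genes, and GGGCGG in 25 of 34 and in 67.4%. GGANNTTCC occurred in 2 of 34 and in 4.62%, ACAAAG in 1 of 34 and in 12.9%, TGANTCA in 1 of 34 and in 4.57%, and AACAATG in 0 of 34 and in 1.73%. Median GC content was 66.3% over the members' windows and 61.3% over those of all tested genes. Impad1, Ndst1, Extl3, Chsy3, Csgalnact1, Xylt1, Slc26a2 and Ext1 had no window.

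Slc35d1 carries UDP-glucuronic acid and UDP-N-acetylgalactosamine, the building blocks of chondroitin, out of the cytosol. It had 6.74, 6.75 and 6.05 FPKM in the Sema4D libraries, against 9.37, 8.18 and 8.03 FPKM in the control libraries (-0.34, limma adjusted p = 0.00370). Ugdh, the dehydrogenase that makes UDP-glucuronic acid, went the other way, with 77.8, 84.7 and 78.7 FPKM in the Sema4D libraries and 70.0, 66.3 and 67.9 FPKM in the control libraries (0.24, limma adjusted p = 0.00154). With columns scaled to a common sum its rise was 0.16. Impad1, the Golgi phosphatase that clears the by-product of sulphation, averaged 33.8 ± 0.757 FPKM with Sema4D and 34.4 ± 0.752 FPKM in control (SD, n = 3 each), with a 95% interval of -0.10 to 0.05 for its log2 fold change. It was called as a fall with columns scaled to a common sum (-0.10, limma adjusted p = 0.0424). Summed over the 6 supply genes, FPKM came to 278, 285 and 281 in the Sema4D libraries, against 373, 363 and 370.3 in the control libraries. Papss2 alone averaged 108 of the mean of 281 FPKM with Sema4D and 177 of 369 FPKM in control. Most of the difference in this sum was thus that of Papss2. The sums of the other roles differed less: linker enzymes 106 ± 4.03 with Sema4D and 121 ± 3.64 in control, chondroitin chain 232 ± 0.298 and 224 ± 3.68, heparan chain 166 ± 1.28 and 168 ± 3.33, and sulphotransferases 178 ± 2.11 and 177 ± 3.21 FPKM (Sema4D, then control; SD, n = 3 each).

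**Figure D2:**
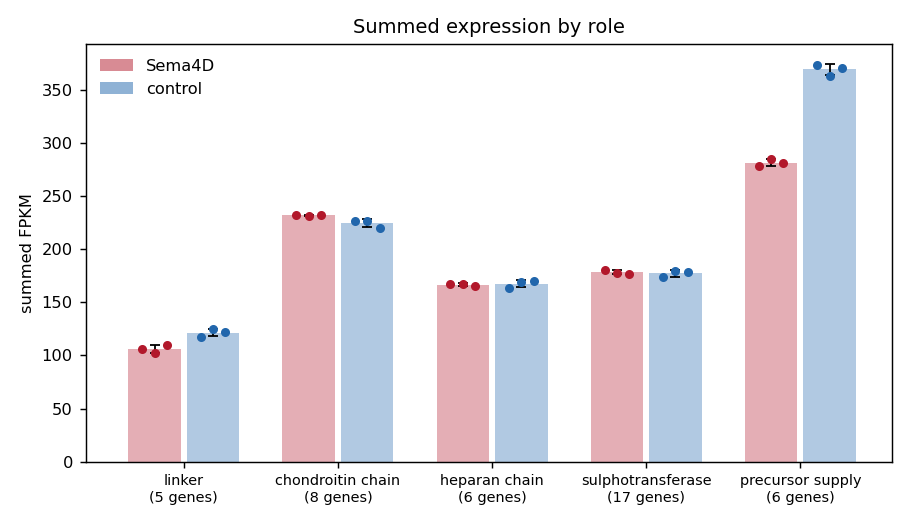
Summed FPKM of each role in each library (points), with the mean (bar) and SD (line) of the 3 Sema4D libraries (red, left) and the 3 control libraries (blue, right). Precursor supply sat at 278 to 285 FPKM with Sema4D, below its 363 to 373 FPKM in control, while the heparan chain and sulphotransferase sums overlapped between the groups. Within precursor supply, Papss2 alone averaged 108 FPKM with Sema4D and 177 FPKM in control.

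Among the 5 linker enzymes the xylosyltransferases, which add the first xylose to a core protein, parted. Xylt1 (chr7:117380979-117673580, plus strand, GRCm38) had 43.8, 40.2 and 43.5 FPKM in the Sema4D libraries, against 59.9, 64.3 and 62.1 FPKM in the control libraries (-0.54, SE 0.043, limma adjusted p = 1.88e-05). Xylt2, the less abundant form, had 10.05, 10.02 and 10.6 FPKM in the Sema4D libraries, against 9.41, 8.86 and 9.48 FPKM in the control libraries. All Sema4D libraries were lower for Xylt1 and slightly higher for Xylt2. The small rise of Xylt2 (0.13, limma adjusted p = 0.0445) missed the threshold without any 1 of the 6 libraries (0.0646 to 0.138) and after both rescalings. B4galt7, which adds the first galactose, also rose by little (25.3 ± 0.626 FPKM with Sema4D and 22.3 ± 1.59 FPKM in control, SD, n = 3 each; 0.17, limma adjusted p = 0.0269). Its adjusted p was 0.0631 without Sema4D replicate 2, 0.0820 without Sema4D replicate 3 and 0.188 with columns scaled to a common sum. The next enzymes, B3galt6 for the second galactose and B3gat3 for the closing glucuronic acid, did not pass, with 95% intervals of -0.19 to 0.13 and -0.11 to 0.14. B3galt6 was the lowest of the linker genes, at 3.90 to 4.61 FPKM with Sema4D and 4.07 to 4.52 FPKM in control, and B3gat3 was at 22.6 to 25.4 FPKM with Sema4D and 22.3 to 24.7 FPKM in control. Xylosyltransferase transcripts together summed to 52.7 ± 2.2 FPKM with Sema4D and 71.3 ± 1.96 FPKM in control (SD, n = 3 each).

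The chondroitin chain enzymes moved both ways, 3 up and 3 down of 8 (37.5% each, beside 24.5% and 22.2% of all tested genes). Csgalnact1, which starts the chain by adding its first N-acetylgalactosamine, fell to 35.1, 34.5 and 34.7 FPKM in the Sema4D libraries, against 46.4, 43.0 and 42.8 FPKM in the control libraries (-0.33, SE 0.038, limma adjusted p = 0.000158). Its relative Csgalnact2, at 13.97 to 14.8 FPKM with Sema4D and 14.1 to 15.4 FPKM in control, did not pass (-0.06, 95% interval -0.16 to 0.05), but was called as a fall with columns scaled to a common sum (-0.14, limma adjusted p = 0.0404). Of the 4 polymerase genes, Chsy3 fell most, with 3.91, 4.70 and 3.84 FPKM in the Sema4D libraries and 7.85, 8.09 and 7.74 FPKM in the control libraries (-0.79, SE 0.070, limma adjusted p = 3.19e-05). Chsy1, the more abundant synthase, rose to 36.3, 35.1 and 36.6 FPKM in the Sema4D libraries, against 32.7, 29.8 and 30.4 FPKM in the control libraries (0.21, limma adjusted p = 0.00348). Chsy3 thus made up 10.3% ± 1.26 of the summed Chsy1 and Chsy3 FPKM with Sema4D and 20.3% ± 1.01 in control (SD, n = 3 each). With columns scaled to a common sum the rise of Chsy1 was 0.13.

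Chpf, a polymerase cofactor, had 34.1 to 36.9 FPKM with Sema4D and 32.02 to 36.2 FPKM in control, which overlapped (0.05, 95% interval -0.07 to 0.17). Chpf2 fell slightly, to 39.1 ± 0.183 FPKM with Sema4D, against 42.5 ± 1.04 FPKM in control (SD, n = 3 each; -0.12, limma adjusted p = 0.0140, or -0.20 with columns scaled to a common sum). Its annotated exons share 44.1% of their bases with those of Smarcd3 on the opposite strand, which was lower as well (-0.34, limma adjusted p = 0.00232), and the strand setting of the counting is not given in the sources used here. Reads in the shared bases therefore cannot be told apart. The 4 polymerase genes together summed to 114 ± 1.93 FPKM with Sema4D and 115 ± 1.93 FPKM in control.

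Both epimerase genes rose. Dse and Dsel turn glucuronic into iduronic acid and so make dermatan out of chondroitin. Dse had 55.2, 55.6 and 53.3 FPKM in the Sema4D libraries, against 42.6, 41.6 and 40.6 FPKM in the control libraries (0.39, SE 0.032, limma adjusted p = 2.39e-05). Dsel (chr1:111858702-111864918, minus strand, GRCm38) had 14.01, 13.5 and 13.5 FPKM in the Sema4D libraries, against 8.53, 8.62 and 8.16 FPKM in the control libraries (0.64, SE 0.041, limma adjusted p = 5.08e-06). All 3 Sema4D libraries stood above all 3 control libraries for each gene, and by mean FPKM Dsel was 1.62-fold and Dse 1.31-fold higher with Sema4D. The Dsel window (RefSeq, GRCm38.p6, chr1:111864869-111865168, minus strand) is shown as that of the largest rise among the chain enzymes, with capitals marking the same 6 motifs.
Dsel: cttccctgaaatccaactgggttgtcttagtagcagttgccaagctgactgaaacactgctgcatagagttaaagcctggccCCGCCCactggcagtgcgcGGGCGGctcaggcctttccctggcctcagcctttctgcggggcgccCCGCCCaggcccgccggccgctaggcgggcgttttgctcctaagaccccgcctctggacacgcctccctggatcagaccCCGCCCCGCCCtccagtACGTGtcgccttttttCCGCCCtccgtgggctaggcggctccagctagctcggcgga
It holds 6 matches to GGGCGG, 5 of them as the reverse complement, and 1 to ACGTG.

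Of the 6 heparan chain genes 2 rose, 3 fell and 1 did not pass. Among all tested genes 24.5% were called higher and 22.2% lower. Extl3, which adds the first N-acetylglucosamine and so commits a linker to heparan, had 18.2, 17.9 and 17.4 FPKM in the Sema4D libraries, against 11.9, 12.7 and 13.1 FPKM in the control libraries (0.47, SE 0.045, limma adjusted p = 5.18e-05). The polymerase is a complex of EXT1 and EXT2. Ext1 rose to 33.7, 35.03 and 32.4 FPKM in the Sema4D libraries, against 28.8, 28.2 and 28.4 FPKM in the control libraries (0.24, limma adjusted p = 0.000963). Ext2, the more abundant partner, was at 67.3, 66.6 and 67.3 FPKM with Sema4D and at 70.0, 72.7 and 73.4 FPKM in control (-0.10, limma adjusted p = 0.0212). That small fall missed the threshold without Sema4D replicate 1 (0.0519) or 2 (0.0624), without control replicate 2 (0.0620) or 3 (0.0729) and with a replicate block (0.0552), and it was -0.18 with columns scaled to a common sum.

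Extl1, which lengthens heparan chains, fell to 18.4 ± 0.534 FPKM with Sema4D, against 22.9 ± 1.16 FPKM in control (-0.31, limma adjusted p = 0.000707). Glce, the epimerase of heparan, fell to 17.2 ± 0.339 FPKM with Sema4D, against 19.7 ± 0.405 FPKM in control (SD, n = 3 each; -0.19, limma adjusted p = 0.00310). Extl2, which can cap a phosphorylated linker, had 11.99 to 12.5 FPKM with Sema4D and 11.3 to 12.4 FPKM in control and did not pass (0.04, 95% interval -0.06 to 0.15). Between the enzymes that start each chain type, Csgalnact1 for chondroitin was therefore lower and Extl3 for heparan higher in every Sema4D library. For Csgalnact2, the relative of Csgalnact1, the groups overlapped (-0.06).

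**Figure D3:**
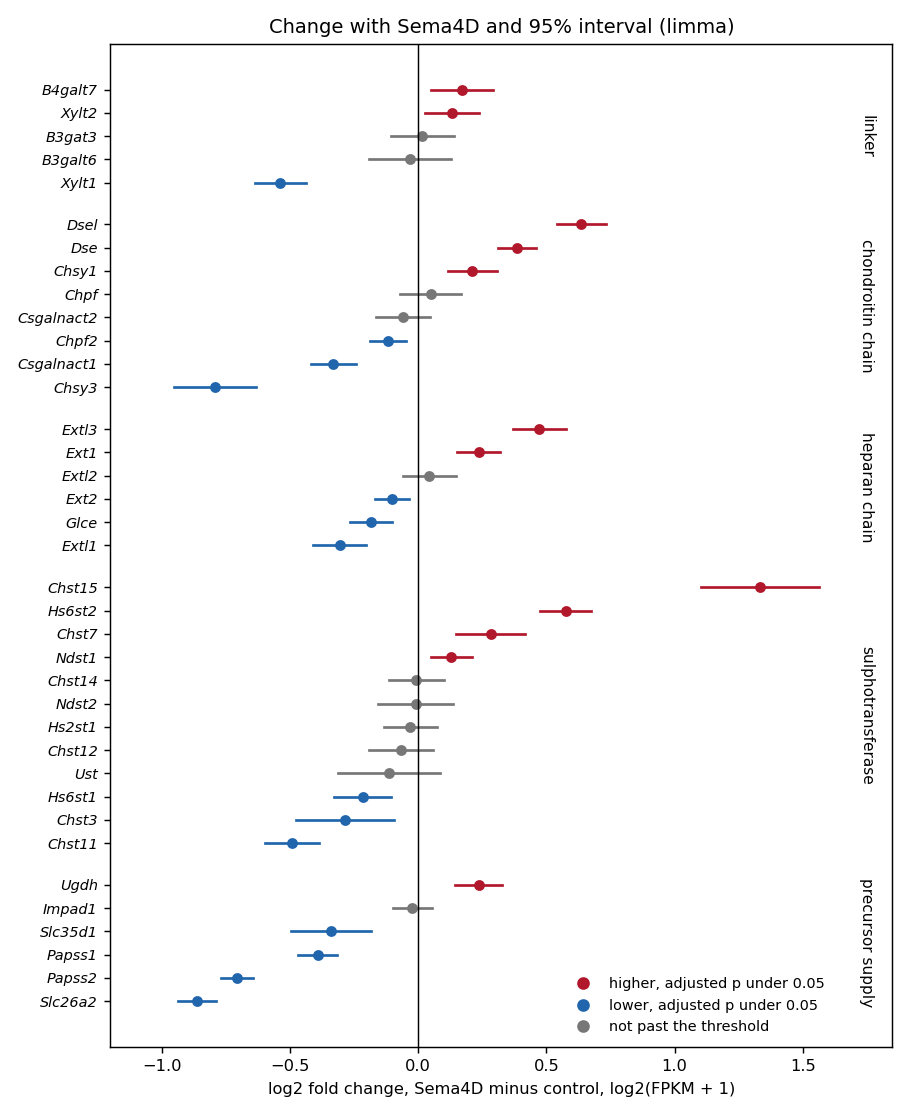
Log2 fold change of the 37 tested genes, Sema4D minus control on the log2(FPKM + 1) scale (points), with limma 95% intervals (lines), grouped by role and coloured by call at an adjusted p under 0.05 (red, higher; blue, lower; grey, not past the threshold). Chst15 lies farthest right at 1.33, and Slc26a2, Chsy3 and Papss2 lie farthest left at -0.86, -0.79 and -0.71.

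Of 17 sulphotransferase genes 12 were tested, of which 4 rose and 3 fell (33.3% and 25.0%, beside 24.5% and 22.2% of all tested genes). Chst15 showed the largest change of all 42 genes, but its control mean of 0.952 FPKM was under the filter of 1 FPKM. It passed only through its Sema4D libraries, at a mean of 2.45 FPKM over all 6. In the fit with no filter its limma adjusted p was 9.94e-05. Its enzyme adds a 6-O-sulphate to N-acetylgalactosamine that already carries a 4-O-sulphate, which makes the doubly sulphated chondroitin sulphate E. It had 4.68, 3.79 and 3.37 FPKM in the Sema4D libraries, against 1.002, 0.930 and 0.924 FPKM in the control libraries. Every Sema4D library was above every control library and the spread was wider with Sema4D, with a mean 4.14-fold higher (log2 fold change 1.33, SE 0.10, limma adjusted p = 1.22e-05; 1.93 with a pseudocount of 0.1). Chst15 lies on chromosome 7 (chr7:132235780-132317228, minus strand, GRCm38) inside the span that GENCODE gives Fgfr2 on the same strand, shares no exonic base with it, and Fgfr2 was lower, with 50.8, 50.5 and 52.3 FPKM in the Sema4D libraries and 96.0, 101.4 and 98.7 FPKM in the control libraries (-0.93, limma adjusted p = 9.53e-08).

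The main chondroitin 4-O-sulphotransferase of cartilage, Chst11 (chr10:82985498-83195900, plus strand), fell to 18.9, 19.4 and 21.2 FPKM in the Sema4D libraries, against 27.6, 28.4 and 28.7 FPKM in the control libraries (-0.49, SE 0.046, limma adjusted p = 4.49e-05). Chst12, which acts at the same position, had 43.0, 38.7 and 38.5 FPKM in the Sema4D libraries and 39.5, 43.5 and 42.9 FPKM in the control libraries, which overlapped (-0.07, 95% interval -0.19 to 0.06). With columns scaled to a common sum it was called as a fall (-0.15, limma adjusted p = 0.0417). Chst12 made up 66.9% ± 2.45 of the summed Chst11 and Chst12 FPKM with Sema4D and 59.8% ± 0.835 in control. Chst13, the third gene of this kind, was listed at 0.0386, 0 and 0 FPKM in the Sema4D libraries and at 0 in all control libraries, and was not tested.

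The 6-O-sulphotransferase genes were low and parted. Chst7 rose to 3.86, 3.78 and 3.94 FPKM in the Sema4D libraries, against 3.02, 2.82 and 3.15 FPKM in the control libraries (0.28, limma adjusted p = 0.00451). Chst3, whose human mutations cause spondyloepiphyseal dysplasia, fell to 1.05, 1.16 and 1.18 FPKM in the Sema4D libraries, against 1.49, 1.5 and 1.81 FPKM in the control libraries (-0.29, limma adjusted p = 0.0224). The fall of Chst3 was -0.46 with a pseudocount of 0.1, and its adjusted p was 0.0629 without Sema4D replicate 1 and 0.0610 without control replicate 3. Summed 6-O genes overlapped between groups, at 4.91, 4.94 and 5.12 FPKM with Sema4D and 4.51, 4.32 and 4.96 FPKM in control, while summed 4-O genes were 62.0, 58.1 and 59.7 FPKM with Sema4D and 67.2, 72.0 and 71.7 FPKM in control. Chst14, the dermatan 4-O-sulphotransferase, and Ust, which sulphates the uronic acid at 2-O, did not pass (95% intervals -0.11 to 0.10 and -0.31 to 0.09). Chst14 had 22.9 to 25.6 FPKM with Sema4D and 23.5 to 25.1 FPKM in control, and Ust 3.11 to 3.73 FPKM with Sema4D and 3.45 to 4.32 FPKM in control.

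Windows are shown for the largest rise and the largest fall among these sulphotransferases, Chst15 (RefSeq, GRCm38.p6, chr7:132317179-132317478, minus strand) and Chst11 (chr10:82985247-82985546, plus strand), with capitals as above.
Chst15: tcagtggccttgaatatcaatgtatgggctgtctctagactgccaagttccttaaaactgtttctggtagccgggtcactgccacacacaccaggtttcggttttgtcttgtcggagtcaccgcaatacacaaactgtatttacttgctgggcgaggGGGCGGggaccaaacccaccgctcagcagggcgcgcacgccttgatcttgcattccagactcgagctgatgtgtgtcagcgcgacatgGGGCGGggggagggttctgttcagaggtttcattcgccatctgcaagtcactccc
Chst11: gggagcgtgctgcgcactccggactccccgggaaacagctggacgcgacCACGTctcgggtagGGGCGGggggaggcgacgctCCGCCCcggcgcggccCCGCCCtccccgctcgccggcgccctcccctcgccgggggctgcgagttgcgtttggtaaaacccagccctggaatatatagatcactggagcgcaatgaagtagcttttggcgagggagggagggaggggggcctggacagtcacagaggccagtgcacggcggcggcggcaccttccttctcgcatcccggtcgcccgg
Chst15 holds 2 matches to GGGCGG. Chst11 holds 3 to GGGCGG in either orientation and 1 to ACGTG as its reverse complement. None of the 4 other motifs matched in these windows.

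Of the 5 heparan sulphotransferases tested, 2 rose and 1 fell (40.0% and 20.0%, beside 24.5% and 22.2% of all tested genes). Hs6st2, a 6-O-sulphotransferase (chrX:51387212-51681856, minus strand, GRCm38) rose to 25.5, 27.9 and 25.8 FPKM in the Sema4D libraries, against 17.7, 16.96 and 17.4 FPKM in the control libraries (0.58, SE 0.044, limma adjusted p = 1.29e-05). Hs6st1, of the same kind, fell to 8.86, 8.12 and 7.99 FPKM in the Sema4D libraries, against 9.75, 9.92 and 9.78 FPKM in the control libraries (-0.22, limma adjusted p = 0.00672). The pair summed to 34.7 ± 1.19 FPKM with Sema4D and 27.2 ± 0.307 FPKM in control, of which Hs6st2 held 76.0% ± 1.65 with Sema4D and 63.9% ± 0.723 in control (SD, n = 3 each). Ndst1, the N-deacetylase and N-sulphotransferase that opens heparan modification, rose to 26.3, 26.0 and 26.3 FPKM with Sema4D, against 23.3, 24.6 and 23.7 FPKM in control (0.13, limma adjusted p = 0.0140). Its rise missed the threshold with columns scaled to a common sum (0.05, adjusted p = 0.259) and after quantile normalization (0.06, adjusted p = 0.180). Ndst2 and the 2-O gene Hs2st1 did not pass (95% intervals -0.16 to 0.14 and -0.13 to 0.07). Their ranges overlapped, at 8.26 to 9.20 FPKM with Sema4D and 8.06 to 9.41 FPKM in control for Ndst2, and at 11.2 to 11.8 FPKM with Sema4D and 11.3 to 12.2 FPKM in control for Hs2st1.

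The Hs6st2 window (RefSeq, GRCm38.p6, chrX:51681553-51681852, minus strand), shown as that of the second largest sulphotransferase rise, has no capital because none of the 6 motifs matched.
Hs6st2: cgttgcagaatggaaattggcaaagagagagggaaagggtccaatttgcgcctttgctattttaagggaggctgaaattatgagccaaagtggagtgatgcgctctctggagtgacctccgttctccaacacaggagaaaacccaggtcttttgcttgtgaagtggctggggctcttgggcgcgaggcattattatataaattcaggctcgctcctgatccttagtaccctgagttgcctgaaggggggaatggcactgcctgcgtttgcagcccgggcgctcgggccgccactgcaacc
Its GC content was 53.7%, and the members' windows ranged from 43.0% to 78.0%.

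The 3 heparan 3-O-sulphotransferase genes, whose enzymes make rare sites such as the one that binds antithrombin, were each under 1 FPKM in every library. Hs3st3a1 was listed at 0.402, 0.272 and 0.370 FPKM in the Sema4D libraries and 0.814, 0.752 and 0.591 FPKM in the control libraries. Hs3st3b1 was listed at 0.479, 0.421 and 0.419 FPKM with Sema4D and 0.778, 0.769 and 0.800 FPKM in control. Both were lower in every Sema4D library, and in a fit with no filter on low values they passed with limma adjusted p = 0.00634 and 0.00125. These are close copies whose reads may be split between them, and 32.9% of the exonic bases of Hs3st3a1 also lie in F930015N05Rik on the opposite strand. Hs3st1 was listed at 0.0754, 0.0404 and 0 FPKM with Sema4D and 0.201, 0 and 0 FPKM in control, and Ndst3 at 0.0406 to 0.0671 FPKM with Sema4D and 0.0283 to 0.0537 FPKM in control. Neither passed without the filter.

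Related genes were also set beside each other within a step. For 11 pairs, chosen with earlier results of these data known, the difference in log2(FPKM + 1) between the 2 genes was taken in each library and compared between groups with a two-sided exact permutation test, which cannot go below 0.1 with 3 libraries against 3. It reached that value in 10 pairs, all adjusted to 0.11 over the 11, so no pair passed a threshold of 0.05. The groups did not overlap in those 10. For single genes they did not overlap in 56.6% of all tested, but that share was not computed for differences between genes and is not a like measure. The difference of Chsy3 and Chsy1 was -2.92, -2.66 and -2.96 in the Sema4D libraries and -1.93, -1.76 and -1.84 in the control libraries, a shift of -1.003. Hs6st2 against Hs6st1 shifted by 0.79, Xylt2 against Xylt1 by 0.67, Chst12 against Chst11 by 0.43 and Csgalnact2 against Csgalnact1 by 0.27. Ext2 against Ext1 shifted by -0.34 and Papss2 against Papss1 by -0.31. The shift of Chst3 against Chst11 was 0.21, but 0.05 with a pseudocount of 0.1, and both genes were lower by like shares of mean FPKM (-29.4% and -29.9%). Only for Ndst2 and Ndst1, among the 11, did the groups overlap (exact p = 0.2).

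**Figure D4:**
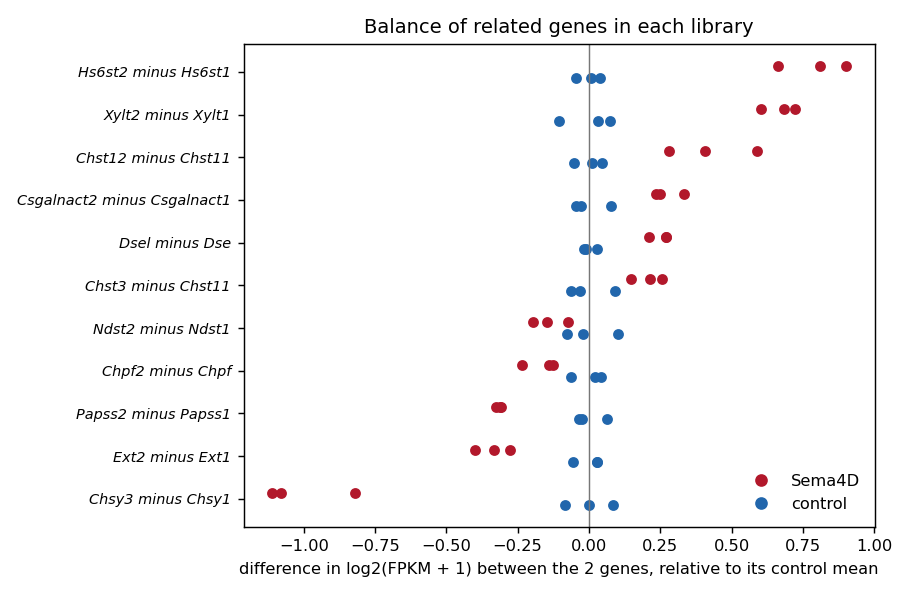
Difference in log2(FPKM + 1) between 2 related genes in each library, relative to the control mean of that pair (points; red, Sema4D, upper; blue, control, lower). Red and blue points are apart in 10 of 11 pairs, farthest for Chsy3 and Chsy1 at a shift of -1.003 and for Hs6st2 and Hs6st1 at 0.79.

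Genes listed as proteoglycan core proteins, not sorted by the chains they carry, also moved both ways. Of 32 proteoglycan core protein genes listed, 26 were tested, of which 11 rose and 9 fell (42.3% and 34.6%, beside 24.5% and 22.2% of all tested genes; median log2 fold change 0.06). The syndecan gene Sdc4, a carrier of heparan chains, rose to 288, 277 and 271 FPKM in the Sema4D libraries, against 82.0, 86.5 and 86.5 FPKM in the control libraries (1.70, limma adjusted p = 4.62e-09). Among small leucine-rich proteoglycans, Omd fell to 17.7 ± 0.238 FPKM with Sema4D, against 51.0 ± 2.09 FPKM in control, and Ogn to 174 ± 7.08 FPKM with Sema4D, against 462 ± 13.7 FPKM in control (SD, n = 3 each). Of the same family, Fmod (-0.32) and Epyc (-0.19) also fell, while Lum (0.71), Dcn (0.52) and Prelp (0.20) rose. Bgn did not pass the threshold and Kera was under the filter on low values. Acan, the core protein that carries most chondroitin sulphate of cartilage, was at 345, 332 and 347 FPKM with Sema4D and 554, 573 and 571 FPKM in control (-0.73, limma adjusted p = 2.07e-07). Vcan, of the same list, went the other way (0.71, limma adjusted p = 1.68e-06).

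Further genes of assembly and modification were 22, of which 13 were tested, 4 rose and 7 fell (30.8% and 53.8%, beside 24.5% and 22.2% of all tested genes; median -0.12). Sulf2, which removes 6-O-sulphates from heparan outside the cell, fell to 45.7 ± 1.58 FPKM with Sema4D, against 59.3 ± 0.390 FPKM in control. Its relative Sulf1 went the other way, to 53.9 ± 2.50 FPKM with Sema4D, against 49.0 ± 0.740 FPKM in control (0.14, limma adjusted p = 0.0190). B4galt1, a galactosyltransferase, and B3gnt2, which extends lactosamine chains, rose to 33.5 ± 0.444 and 18.3 ± 0.449 FPKM with Sema4D, against 23.5 ± 0.435 and 12.8 ± 0.385 FPKM in control (SD, n = 3 each). Of 18 further precursor and transport genes, 16 were tested, 2 rose and 7 fell (12.5% and 43.8%, beside the same 24.5% and 22.2%; median 0.01). Gfpt1 and Gfpt2, the entry enzymes of amino sugar synthesis, fell (-0.52 and -0.44). The 2 rises were Slc26a11, an anion transporter of the Slc26a2 family (0.25), and Uap1, which makes UDP-N-acetylglucosamine (0.16). None rose in that list with columns scaled to a common sum or without control replicate 2, and 1 rose without Sema4D replicate 1, 2 or 3 or control replicate 3. The 7 falls were 4 without Sema4D replicate 2 or with a replicate block.

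Of 16 breakdown enzymes listed 15 were tested, 2 rose and 2 fell (26.7% called in either direction, beside 46.7% of all tested genes; median 0.03). The heparan endoglycosidase Hpse (0.39) was among the rises, and Ids (-0.29) and Idua (-0.35), which act on iduronic acid, fell. With columns scaled to a common sum or after quantile normalization the falls were 5. Over all 11603 tested genes the falls were 3802 and 3420 in those settings, beside 2581 with neither. Of 16 names listed for hyaluronan, the unsulphated glycosaminoglycan, 9 were tested, 3 rose and 5 fell (33.3% and 55.6%, beside 24.5% and 22.2% of all tested genes; median -0.19). The receptor Cd44 rose to 65.8, 66.2 and 59.9 FPKM with Sema4D, against 18.2, 18.2 and 17.8 FPKM in control, and the link protein Hapln1 fell to 114 ± 0.859 FPKM with Sema4D, against 216 ± 3.58 FPKM in control (SD, n = 3 each). Tnfaip6, which binds hyaluronan in inflamed tissue, rose to 5.10 ± 0.424 FPKM with Sema4D, against 2.30 ± 0.136 FPKM in control. The 5 falls were 3 without Sema4D replicate 1 or 3 or control replicate 2.

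**Figure D5:**
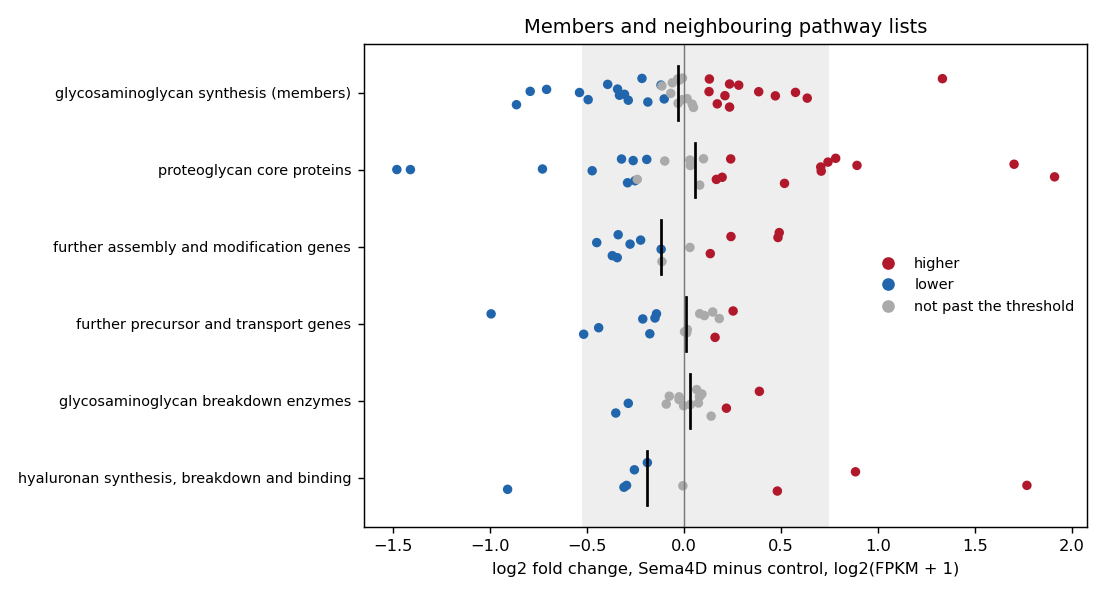
Log2 fold change (Sema4D minus control, log2(FPKM + 1)) of each tested gene of the 42 and of 5 neighbouring lists (points; red, higher; blue, lower; grey, not past the threshold), with the median of each list (bar) and the range from the 5th to the 95th percentile of all tested genes (grey band). The medians lie between -0.19 and 0.06. The core protein gene Srgn, Cd44 and Sdc4 lie far right of the grey band, at 1.91, 1.77 and 1.70, and Omd and Ogn lie far left, at -1.48 and -1.41.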

How the data were processed

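Total RNA of 3 Sema4D and 3 control libraries was sequenced, per the labels. The deposited values are FPKM; Cufflinks 2.2.1, Bowtie2 2.2.3, TopHat2 2.0.13 and SAMtools 0.1.19 are named with mm10 in the submitters' processing notes, without saying what each did. Annotation, strand setting and scaling are not given in the sources used here. No count test was used, since FPKM is a normalized unit. Values were taken as log2(FPKM + 1), and 11603 genes averaging 1 FPKM or more were fitted with limma 3.58.1 (trend, two-sided, no replicate block) in R 4.3.3, tested on simulated data. Depth was estimated from 1681 genes with 1 transcript over 2000 nucleotides, where, depending on the library, 79.7% to 87.2% of the low values came to a whole number of fragments within 0.15, and whole counts were not recovered. Any pair of libraries had equal values for 0.112% to 0.293% of tested genes, so all 6 were kept. Genes listed at 0 are given per library, since a 0 may stand for an estimate that failed. Positions are from GENCODE M21 (GRCm38, the assembly of mm10) and promoters from RefSeq, where 34 of the 42 genes matched. All other computing used Python 3.11.15, scipy 1.17.1 and pandas 2.3.3. Every one of the 42 genes is named, and of each neighbouring list the 3 genes with the smallest p, all called genes where 5 or fewer were called, and others chosen after their values were seen (Acan, Vcan, Fmod, Epyc, Lum, Dcn, Prelp, Bgn, Kera, Slc26a11, Uap1, Sulf1, Srgn). Some genes that this rule names are not reported here. The 42 genes, lists, pairs and motifs were chosen with earlier results of these data known. Snorc and Cnmd were not matched by symbol, and Cemip2 was listed beside its older symbol Tmem2. Alternatives were a pseudocount of 0.1, no filter or a mean of at least 5 FPKM, quantile normalization, columns scaled to a common sum, a replicate block and leaving out each library.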

Additional observations from a re-analysis of the deposited data

How the results depend on the processing

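Among the 42 genes, 9 of 12 rises and 12 of 14 falls kept direction and call under every alternative in which they were fitted (at a mean of at least 5 FPKM, 32 of 37 were, without Chst15, Chst7 and Chst3); the exceptions were Xylt2, B4galt7, Ndst1, Ext2 and Chst3. With each library left out, rises were 10 to 11 and falls 12 to 14. Over all 11603 tested genes, rises were then 2471 to 2635 and falls 2207 to 2327, beside 2841 and 2581 with all 6 libraries. The median of -0.03 was -0.11 with columns scaled to a common sum, -0.082 after quantile normalization and -0.045 to -0.0091 with each library left out. The causes of these moves were not tested.

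Columns scaled to a common sum gave 0 rises of further precursor genes and 5 falls of breakdown enzymes, and quantile normalization 1 and 5. Over all 11603 tested genes, scaling gave 2005 rises and 3802 falls, and quantile normalization 2172 and 3420. With neither they were 2841 and 2581. With a mean of at least 5 FPKM, 1 further precursor gene and 1 breakdown enzyme rose. Slc26a11 (mean 4.08 FPKM) and Hpse (mean 2.34 FPKM) were under that filter and not fitted. Leaving out each library gave 0 to 2 rises and 4 to 6 falls of further precursor genes and 3 to 5 falls of hyaluronan genes. Of the 11 genes not called, Csgalnact2, Chst12 and Impad1 were called as falls with columns scaled to a common sum, and signs turned for 6: B3gat3 (-0.064 scaled to a common sum, -0.053 quantile), Chpf (-0.031, -0.0062) and Extl2 (-0.034, -0.020), and with libraries left out B3galt6 (-0.093 to 0.0051), B3gat3 (-0.029 to 0.051), Chst14 (-0.047 to 0.028) and Ndst2 (-0.065 to 0.036).

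Same-numbered libraries deviated from their group means with r of 0.140, -0.0809 and -0.0544 across genes, and only the replicate 1 libraries correlated best with their own number. These weak correlations cannot decide whether the numbers pair the libraries, since deviations from a mean of 3 libraries cancel out within each group. With a replicate block 11 members rose and 13 fell, 4 further precursor genes fell, and the calls of Xylt2 and Ext2 were lost. Over all 11603 tested genes, 2638 rose and 2356 fell with the block, beside 2841 and 2581 without it. Depth limits Chst13, Ndst3 and Hs3st1 most, none of them above 0.201 FPKM in any library.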
